A study of Mus musculus with 4 samples.

Results

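The cells described here are granulosa cells (GCs) of the mouse ovary in which at least 3 of 6 rule genes, Cox4i2 among them, were detected and Lhcgr was not. They are called Cox4i2 GCs below as a short name for the rule, although not each of them held a Cox4i2 transcript. Each cell was chosen by its own molecule counts, in unique molecular identifiers (UMIs), of which each stands for 1 RNA molecule caught in the droplet. A cell was taken if it held at least 500 genes, over 1000 UMIs and under 10% mitochondrial UMIs, and if at least 3 of the 6 rule genes Cox4i2, Ndufa4l2, Slc16a3, Ank1, Sema3g and Fam81a were detected. It also had to hold Inha and Inhbb at 5 or more UMIs per 10000, no UMI of Lhcgr, fewer than 2 of the mitotic genes Top2a, Mki67, Ube2c, Prc1 and Aurkb, and fewer than 2 of the stromal and pericyte genes Rgs5, Notch3, Dcn and Col1a2. This selected 641 of the 47782 cells that passed the quality limits, out of 20524 GCs by the inhibin and stromal limits.

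Whole ovaries of 8-week-old female littermates were dissociated and sequenced in 4 droplet libraries. There were 2 libraries from Fosl2F/F mice, which carry LoxP sites in both Fosl2 alleles and no Cre, and 2 from Fosl2cKO mice, which carry the same floxed alleles and a Cyp19a1-Cre transgene. Fosl2 is a subunit of the AP-1 transcription factor, and the Cyp19a1 (aromatase) promoter drives Cre in GCs that express it. In which of the cells the deletion took place was not measured. The Cre mice were on a C57BL/6J background and the ovaries were collected in estrus. The study used as many females as libraries in each group, without naming the animal behind each library, and p-values below measure the spread between the libraries. Values of the 4 libraries are given in the order Fosl2F/F 1, Fosl2F/F 2, Fosl2cKO 1 and Fosl2cKO 2.

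The libraries held 8654 to 28155 barcodes and 120327227 to 148836173 UMIs each. Cox4i2 GCs numbered 304, 179, 54 and 104 cells, and their median depth was 15086.5, 6769, 20339 and 19102.5 UMIs. Fosl2F/F 2 was thus the shallowest library and Fosl2cKO 1 held the fewest of these cells. No barcode was chosen in more than 1 library, and the barcodes of 4 chosen cells also passed the quality limits in another library. Fosl2 itself checked no label, because its levels in the chosen cells overlapped between conditions, at 111, 128, 139 and 99.9 UMIs per 1000000. The kit counts RNA at its 3′ end, and the LoxP sites flank coding exons of Fosl2. Whether they also enclose the counted end was not determined here, so these UMIs need not show the deletion. The libraries are called by their label Fosl2cKO.

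GCs line the follicle, answer follicle-stimulating hormone (FSH), convert androgens to estradiol and secrete inhibins and activins. The GC layer holds no blood vessels, and GCs break down much glucose to pyruvate and lactate, which the oocyte takes up. In many tissues low oxygen stabilises hypoxia-inducible factors, which raise the genes of glycolysis, of lactate export and of alternative subunits of the respiratory chain, while GCs with Lhcgr, the receptor of luteinizing hormone, are the mural cells of large antral follicles that prepare for ovulation.

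The rule genes set the cells apart by construction, so their values are a description. Levels below are a gene's UMIs in all cells of 1 class and library per 1000000 UMIs of all genes there (CPM). Cox4i2, a subunit isoform of cytochrome c oxidase, stood at 295, 202, 63.9 and 94.3 CPM in Cox4i2 GCs. In the other Lhcgr-negative GCs, which passed every other limit but held fewer than 3 rule genes, it stood at 11.5, 10.2, 1.84 and 3.30 CPM. Both libraries labelled Fosl2cKO were below both Fosl2F/F libraries in either class. Ndufa4l2, a hypoxia-induced relative of the respiratory subunit Ndufa4, was at 142, 53.7, 63.9 and 16.4 CPM, and Slc16a3, the lactate exporter MCT4, was at 122, 82.5, 57.2 and 46.0 CPM. The cytoskeletal linker Ank1 was at 76.1, 148, 87.7 and 88.7 CPM, the secreted semaphorin Sema3g at 114, 179, 97.3 and 103 CPM, and Fam81a at 134, 183, 86.8 and 130 CPM. Fosl2F/F 1 was highest for the 3 metabolic rule genes, and Fosl2F/F 2 was highest for the other 3.

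**Figure D1:**
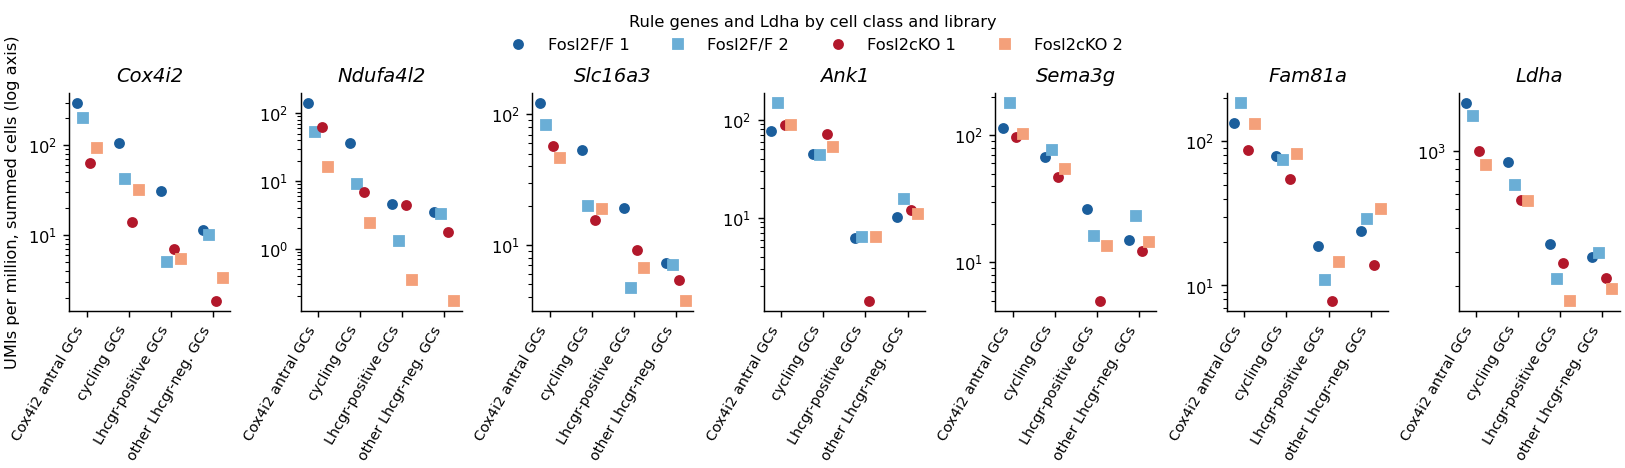
Levels of the 6 rule genes and Ldha in CPM of summed counts (log axis) in 4 GC classes, 1 point per library. Cox4i2 GCs lie highest for each gene, as the rule fixes for its 6 genes, cycling GCs come next, and Ldha in Cox4i2 GCs runs from 845 to 1754 CPM.

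The cells did not all hold the same rule genes. Fam81a was detected in 81.7% of them, Sema3g in 81.4%, Cox4i2 in 76.0%, Slc16a3 in 63.8%, Ank1 in 60.2% and Ndufa4l2 in 33.7%. The most frequent combination was Ank1, Sema3g and Fam81a without the 3 metabolic genes, in 77 cells, followed by all 6 genes in 67 cells. Just inside the limit lay 273 cells with 3 rule genes, against 182 with 4, 119 with 5 and 67 with 6, while 686 further cells just outside it held 2 rule genes, 1786 held 1 and 6281 held none. By library, Cox4i2 was detected in 87.2%, 73.2%, 50% and 61.5% of Cox4i2 GCs, against 7.82%, 3.2%, 2.07% and 3.48% of the other Lhcgr-negative GCs, whose median depth of 8490, 3287, 11851 and 12706 UMIs was lower.

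The limits on other genes removed many cells with 3 rule genes. Of 3704 such cells, 213 failed the inhibin limit, of which 186 held at least 2 of the stromal and pericyte genes. Pericytes are a known site of Cox4i2 and Ndufa4l2. A further 1187 cells held Lhcgr, 1603 held at least 2 mitotic genes and 60 held at least 2 stromal genes. Cox4i2 GCs held Inha and Inhbb at 6.45 to 246 UMIs per 10000, with a median of 73.7. There were 4 cells between the limit of 5 and 10, and 11 cells failed at the inhibin limit alone, with 0 to 3.70 UMIs per 10000. Within the limits, 338 Cox4i2 GCs held 1 mitotic gene and 147 held 1 stromal gene.

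Some markers of pericytes and theca were near 0 in the chosen cells, whereas Cyp17a1 and Acta2 were detected in part of them. The defining pericyte genes Kcnj8 and Higd1b were at 0 to 2.34 CPM and 0 to 0.938 CPM, and the theca peptide Insl3 at 0 to 0.779 CPM. Cyp17a1, a steroid enzyme of theca, was detected in 13.2%, 5.03%, 1.85% and 9.62% of Cox4i2 GCs, against 9.05%, 5.13%, 3.26% and 7.86% of the other Lhcgr-negative GCs. The smooth muscle actin Acta2 was detected in 15.4% to 24.1% against 16.2% to 23.2%. The endothelial gene Pecam1 was detected in 2.79% to 7.89% of cells and the leukocyte gene Ptprc in 0% to 2.88%. Summed over its 12 genes, the pericyte and smooth muscle list came to 24.9 to 79.4 CPM in Cox4i2 GCs and 63.4 to 241 CPM in the other Lhcgr-negative GCs. The 7 genes of the theca list came to 1356, 777, 1366 and 1075 CPM in Cox4i2 GCs. In the other Lhcgr-negative GCs they came to 771, 1381, 1768 and 1228 CPM. Genes of antral GCs outside the rule were common, with Fshr detected in 72.2% to 95.2% of the cells and Inhba in 87.5% to 96.4%. In each library the cells of highest Scrublet score were marked as likely doublets, at a preset rate of 0.8% per 1000 cells. This rate rises with the number of cells in a library. It marked 14, 15, 1 and 3 of the Cox4i2 GCs, a share of 1.85% to 8.38%, against 4.07% to 16.9% of all GCs.

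The cells shared high levels of the enzymes of glycolysis, which the rule did not use. Of the 25 genes listed for glucose uptake, glycolysis and pyruvate handling, 22 reached 20 CPM in Cox4i2 GCs or in the other Lhcgr-negative GCs. In all 4 libraries 16 of these 22 were higher in Cox4i2 GCs, 3 were lower and 3 went both ways, while over all 7542 genes at that level 30.6% were higher in all 4 libraries and 32.2% were lower. The median log2 ratio, taken within each library with 1 CPM added to both levels and averaged over the libraries, was 1.10 for the list and -0.02 over all genes. Over Lhcgr-positive GCs and cycling GCs the medians of the list were smaller, 0.72 and 0.51. These levels come from the contrast that chose the cells, so no test was made of them.

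Hypoxia-inducible factors bind the letters ACGTG or GCGTG, and promoters of 2 genes of the list, of Bnip3 from the hypoxia list and of 2 rule genes are shown to set these letters beside the levels. The windows below are from RefSeq (GRCm38.p6), run 5′ to 3′ on the gene's strand, end 14 to 31 bases before the transcript start, and carry in capitals each ACGTG or GCGTG on either strand, so that CACGTG marks 2 overlapping matches. Ldha (chr7:46845659-46845778, plus strand) makes lactate from pyruvate, Pgk1 (chrX:106186950-106187069, plus strand) makes ATP in glycolysis, and Bnip3 (chr7:138909520-138909639, minus strand) acts in the clearance of mitochondria. Slc16a3 (chr11:120948933-120949052, plus strand) is the lactate exporter, and Sema3g (chr14:31217740-31217859, plus strand) is a rule gene without a match.
Ldha: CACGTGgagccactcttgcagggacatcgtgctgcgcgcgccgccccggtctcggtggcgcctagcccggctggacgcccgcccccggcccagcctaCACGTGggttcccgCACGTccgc
Pgk1: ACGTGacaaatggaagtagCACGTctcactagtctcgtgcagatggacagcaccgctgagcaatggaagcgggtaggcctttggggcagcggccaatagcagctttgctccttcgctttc
Bnip3: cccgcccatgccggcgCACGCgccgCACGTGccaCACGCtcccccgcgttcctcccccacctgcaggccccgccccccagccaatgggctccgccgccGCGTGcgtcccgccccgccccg
Slc16a3: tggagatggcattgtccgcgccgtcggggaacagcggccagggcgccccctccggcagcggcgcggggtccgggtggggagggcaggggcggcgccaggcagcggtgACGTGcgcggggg
Sema3g: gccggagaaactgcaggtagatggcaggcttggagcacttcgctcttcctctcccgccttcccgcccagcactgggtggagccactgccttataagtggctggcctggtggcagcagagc
The Ldha window held 5 matches, the Bnip3 window 5, the Pgk1 window 2, the Slc16a3 window 1 and the Sema3g window 0. Each window was the stretch of 120 bases with the most matches, outside exons and within 250 bases before the start. These counts are therefore the highest that such a window gives. A second RefSeq promoter of Ldha held 2 matches, and the promoters of Tpi1 and of the rule gene Fam81a held 0. Between 250 bases before and 50 after the start, 22 of 24 genes of the glycolysis list with a RefSeq promoter held a match (91.7%), as did 21 of 23 genes of the hypoxia list (91.3%). Of the 6 rule genes 3 had a RefSeq promoter, and 1 of these held a match (33.3%). The share was 46.7% over all 27025 genes with a promoter and 72.3% over the 5582 of them at 20 CPM or more in Cox4i2 GCs. A match is a run of letters and not a measured binding site.

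Ldha was at 1754, 1504, 996 and 845 CPM in Cox4i2 GCs and at 282, 296, 219 and 194 CPM in the other Lhcgr-negative GCs. The classes did not overlap, and the mean log2 ratio was 2.32 ± 0.23 (SD, n = 4 libraries). Ldha was also far lower in Lhcgr-positive GCs (mean 245 CPM) and lower in cycling GCs (659 CPM). Along the pathway, the aldolases Aldoa and Aldoc had mean log2 ratios of 1.53 ± 0.38 and 2.14 ± 0.44, and Tpi1, which interconverts the triose phosphates, had 1.88 ± 0.30. Gapdh, which oxidises them, was at 2694, 2220, 1640 and 1462 CPM against a mean of 700.4 CPM in the other Lhcgr-negative GCs. Pgk1 had a log2 ratio of 1.96 ± 0.33, Eno1 (enolase) of 2.16 ± 0.21 and Pkm (pyruvate kinase) of 1.62 ± 0.32. The first steps had smaller ratios, with 1.06 ± 0.33 for the glucose transporter Slc2a1 and 0.60 ± 0.41 for hexokinase Hk2.

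The list also held 3 genes that were lower in all 4 libraries, among them a second hexokinase of the first step. Ldhb, the lactate dehydrogenase subunit that favours the reverse reaction, stood at 250, 259, 222 and 290 CPM against a mean of 467 CPM, a log2 ratio of -0.86 ± 0.27. Hk1, the widespread hexokinase, had -0.77 ± 0.38, and Pdk4, a kinase that shuts pyruvate dehydrogenase, had -1.38 ± 0.72. Its relative Pdk1 was higher, at 38.9, 39.7, 43.9 and 34.7 CPM against a mean of 17.8 CPM. Thus the isoforms of 3 enzymes parted, with Ldha, Hk2 and Pdk1 higher and Ldhb, Hk1 and Pdk4 lower.

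**Figure D2:**
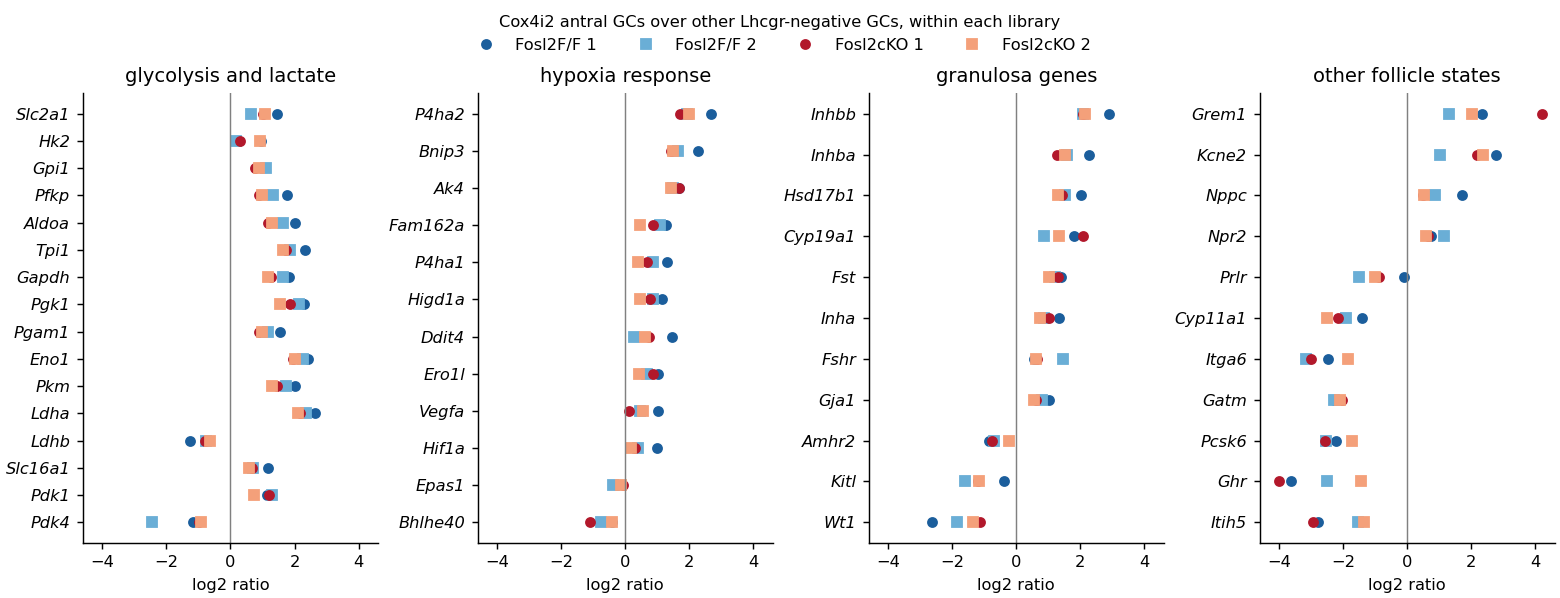
Within-library log2 ratio of CPM of summed counts (1 CPM added) in Cox4i2 GCs over other Lhcgr-negative GCs, 1 point per library, for genes of 4 groups. Ldha (2.32 on average), Eno1 (2.16) and Inhbb (2.30) lie right of 0 in every library, and Ldhb (-0.86), Wt1 (-1.73) and Itga6 (-2.62) lie left of 0.

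Genes of the hypoxia response were higher than in the other Lhcgr-negative GCs, with smaller ratios. Of 29 genes, 23 reached 20 CPM, of which 16 were higher in all 4 libraries, 3 lower and 4 mixed, with a median log2 ratio of 0.49. P4ha2, a collagen prolyl hydroxylase, was at 65.4, 34.3, 38.2 and 30.0 CPM against a mean of 8.89 CPM, a log2 ratio of 2.07 ± 0.42. Bnip3 had 1.70 ± 0.38, Ak4, a mitochondrial adenylate kinase, 1.57 ± 0.12, and Fam162a 0.92 ± 0.36. Vegfa, the main angiogenic ligand, was closer, at 49.2, 68.5, 52.5 and 64.7 CPM against 41.2 CPM. The factor Hif1a had 0.48 ± 0.36. The 3 lower genes were Epas1 (-0.21 ± 0.15), which encodes the second hypoxia-inducible factor, its partner Arnt (-0.31 ± 0.17), and the repressor Bhlhe40 (-0.66 ± 0.32). Over Lhcgr-positive GCs and cycling GCs the medians of the hypoxia list were 0.54 and 0.36.

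Against the other Lhcgr-negative GCs, the respiratory chain split by genome. Of 35 nuclear genes of complex I, which takes electrons from NADH, 34 were higher in all 4 libraries and 1 was mixed, with a median log2 ratio of 0.49. Over Lhcgr-positive GCs and cycling GCs the medians were smaller, 0.20 and 0.21. Ndufs4 had the largest ratio of the 35, 0.99 ± 0.37, with a mean of 228 CPM in the other Lhcgr-negative GCs. Of 12 complex IV genes at 20 CPM outside the rule, 9 were higher and 3 mixed (median 0.45). Cox4i1, the widespread isoform beside Cox4i2, was at 1041, 1026, 804 and 841 CPM with a log2 ratio of 0.27 ± 0.04, so it was present beside Cox4i2. Ndufa4, the relative of Ndufa4l2, went both ways (0.10 ± 0.27). Of 12 genes of the mitochondrial genome, 11 were lower in all 4 libraries (median -0.35), such as mt-Co3 (-0.65 ± 0.08) and mt-Co1 (-0.54 ± 0.05), and the median mitochondrial share of a cell's UMIs was 2.56% to 2.90% in Cox4i2 GCs and 3.51% to 3.90% in the other Lhcgr-negative GCs. The quality limit on that share bounded both classes. In cycling GCs the median share was 2.7% to 3.0%, near that of Cox4i2 GCs. For the genes of the mitochondrial genome the median log2 ratio was -0.32 over Lhcgr-positive GCs and -0.06 over cycling GCs. The 18 genes of the tricarboxylic acid cycle had a median of 0.22, with 11 higher, 1 lower and 6 mixed.

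Genes of inhibins, activins and estradiol synthesis were among the GC identity genes that were higher than in the other Lhcgr-negative GCs. Inhbb, the beta B subunit of inhibins and activins and a gene of the rule, was at 1266, 1029, 833 and 934 CPM against a mean of 205 CPM. Cycling GCs held Inhbb at nearly the same levels, 1178, 895, 766 and 835 CPM. Inhba, the beta A subunit and not in the rule, was at 2815, 1382, 1288 and 1128 CPM against 494 CPM, a log2 ratio of 1.66 ± 0.42, while Lhcgr-positive GCs held it at 4352, 834, 1104 and 1191 CPM. The activin antagonist Fst had 1.23 ± 0.16. Hsd17b1, which makes estradiol from estrone, was at 1735, 1091, 1228 and 916 CPM against 410 CPM, and Cyp19a1 had a log2 ratio of 1.52 ± 0.53. Over the 18 GC identity genes 9 were higher in all 4 libraries, 5 lower and 4 mixed. The median log2 ratio of this list was 0.49 over the other Lhcgr-negative GCs and -0.01 over cycling GCs. Fshr, the FSH receptor, was at 551, 364, 144 and 714 CPM, higher than in the other class within each library, with Fosl2cKO 1 lowest. The lower genes included Wt1 (-1.73 ± 0.66), a factor of early GCs, and Kitl (-1.08 ± 0.50), the ligand of the oocyte's Kit receptor.

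Lists of other follicle states fell on both sides. All 6 genes of the antral Kcne2 Grem1 list were higher in the 4 libraries (median 1.28), led by the BMP antagonist Grem1 (2.46 ± 1.23), which spanned 17.4 to 166 CPM, and the potassium channel subunit Kcne2 (2.09 ± 0.74). All 7 cumulus genes at 20 CPM were lower (median -2.25). Among them Gatm, the first enzyme of creatine synthesis, was at 35.5, 38.9, 43.9 and 46.4 CPM against 189 CPM, and the laminin receptor subunit Itga6 had -2.62 ± 0.59. Of 10 genes of the atretic list 7 were lower and none was higher, with the growth hormone receptor Ghr at 48.1, 19.5, 14.3 and 149 CPM against 339 CPM. Cyp11a1, which starts steroid synthesis from cholesterol, was at 86.6, 209, 180 and 46.0 CPM, against a mean of 519 CPM in the other Lhcgr-negative GCs and 3771 CPM in Lhcgr-positive GCs, and Star, which carries cholesterol into mitochondria, was at 9.46 to 24.1 CPM. The limit on Lhcgr was part of the rule.

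Genes of DNA replication had levels near those of cycling GCs, while the rule itself set the classes apart in genes of mitosis. Of 15 S phase genes at 20 CPM, 14 were higher than in the other Lhcgr-negative GCs in all 4 libraries (median 1.16), and the median against cycling GCs was -0.09. The helicase subunit Mcm3 was at 140, 206, 171 and 120 CPM against means of 39.6 CPM in the other Lhcgr-negative GCs and 143 CPM in cycling GCs. The mitotic cyclin Ccnb2 was at 82.2, 102, 57.2 and 53.5 CPM against means of 22 and 158 CPM. Only 3 of 15 genes of the G2 and mitosis list reached 20 CPM, and 5 of the 15 were genes that the rule limits. The exception in the S phase list was Ccnd3 (-1.15 ± 0.26).

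Among all genes of at least 50 CPM outside the rule genes, ranked by the ratio nearest 0 over the 4 libraries, the leading ones were Ldha, Inhbb (which the inhibin limit used), Eno1, Mvd, Acat2, Rbfox1, Rab33a, Fdps, Igsf3, Tpi1, Mcm3, Dnajb13, Tmem97, Pgk1 and Idi1. Rbfox1, a splicing regulator, was at 534, 852, 526 and 684 CPM, a log2 ratio of 2.12 ± 0.36. Mvd (2.24 ± 0.31), Fdps (2.17 ± 0.40), Idi1 (1.98 ± 0.45) and Acat2 (2.18 ± 0.32) encode enzymes of cholesterol synthesis. The genes furthest below were Cald1, Sorbs2, Pcdh9, Tnik, C1qtnf7, Cdh12, Gatm, Cacnb2, Sema6a, Naaladl2, Wnt4, Crip2, Bcl2, Srgn and Itga6. Cald1, an actin-binding protein, was at 24.8, 32.7, 27.7 and 24.9 CPM against 166, 179, 316 and 150 CPM. Wnt4, a ligand of ovarian development, had -2.14 ± 0.26, and Bcl2, an inhibitor of apoptosis, had -2.08 ± 0.20.

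AP-1 genes were lower in Cox4i2 GCs than in the other Lhcgr-negative GCs. Of 8 such genes at 20 CPM, 7 were lower in all 4 libraries and 1 was mixed (median -0.55). Fosl2 had a log2 ratio of -0.54 ± 0.06, Junb -0.93 ± 0.06 and Atf3 -1.56 ± 0.38. Genes induced by dissociation moved with them, 8 of 9 being lower (median -0.56), and Hsp90aa1 was the 1 that was higher (0.67 ± 0.17). Their part in the AP-1 levels was not tested.

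Metabolic levels were higher where a cell held more rule genes, from cells with 2, just outside the rule, to chosen cells with 5 or 6. The count includes the metabolic genes Cox4i2, Ndufa4l2 and Slc16a3, so this is a description and no test was made. Ldha went from 459, 817, 449 and 326 CPM in cells with 2 rule genes to 910, 1344, 729 and 460 CPM with 3, to 1570, 1620, 1209 and 1047 CPM with 4, and to 2429, 1811, 1812 and 1421 CPM with 5 or 6. The order held in each library, but the last step rested on 130, 30, 6 and 20 cells. Eno1 averaged 233, 396, 602 and 787 CPM over the same steps, and Pgk1 230, 394, 565 and 723 CPM. Inhbb averaged 436, 739, 1212 and 1256 CPM, whereas Ldhb averaged 426 CPM with 2 rule genes and 224 CPM with 5 or 6. Amh, a hormone of growing follicles, was at 228, 204, 305 and 299 CPM with 3 rule genes and at 15.8, 140, 139 and 184 CPM with 5 or 6, lower in each library. Median depth over all libraries was 11153 UMIs with 2 rule genes, 12788 with 3, 14348.5 with 4 and 15091 with 5, and its part was not tested. By library it was 14265, 6429, 20671 and 18452.5 UMIs with 3 rule genes and 14539, 6655, 17856 and 18884.5 UMIs with 4.

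**Figure D3:**
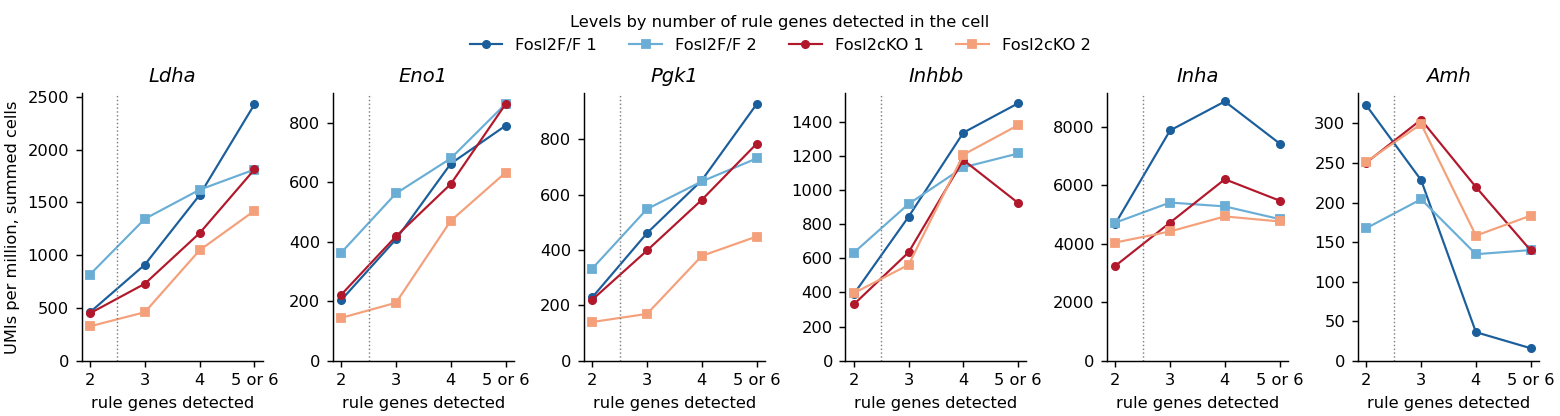
Levels of 6 genes in CPM of summed counts against the number of rule genes detected in the cell, 1 line per library, with a dotted line at the limit of the rule. Ldha is higher at every step in all 4 libraries, up to 2429 CPM in Fosl2F/F 1, where Amh is down to 15.8 CPM.

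By genes other than the rule genes, the chosen cells lay near each other more often than their share of GCs. Among the 15 nearest GCs of a Cox4i2 GC within its library, 35.8%, 15.3%, 13.7% and 19.7% were Cox4i2 GCs, which made up 5.44%, 1.83%, 2.14% and 3.92% of GCs. Cycling GCs made up 29.7%, 44.3%, 55.6% and 40.1% of these neighbours, and 30.3%, 22.8%, 45% and 40.6% of GCs, so they were above their share in Fosl2F/F 2 and Fosl2cKO 1 and close to it in the other libraries. Cells with 3 or more rule genes, whatever their Lhcgr and mitotic genes, were 73.4%, 33.0%, 49.8% and 46.6% of the neighbours against 7.09% to 23.8% of GCs. The rule thus cut across a wider group of GCs with these genes, and the neighbours shared genes of the inhibin and mitotic limits.

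The next comparison asks whether Cox4i2 GCs were a different share of GCs in the 2 conditions. Since detecting 3 genes needs depth, each GC was thinned to 3000 UMIs before the rule was applied, which left out 12%, 30.0%, 6.94% and 5.16% of GCs as shallower. All limits of the rule were taken on the thinned counts, so cells with Lhcgr or at least 2 mitotic genes at full depth could pass. The cells found need not be among those described above, and how many were not was not counted. Cells that met the rule after thinning were 3.56%, 1.45%, 0.469% and 0.913% of GCs, from 175, 99, 11 and 23 cells. Their exact binomial 95% intervals, which cover counting error only, were 3.06% to 4.12%, 1.18% to 1.76%, 0.234% to 0.838% and 0.580% to 1.37%. The pair labelled Fosl2cKO was below the Fosl2F/F pair without overlap, with means of 0.691% ± 0.314 and 2.50% ± 1.49 (SD, n = 2 each). The two-sided exact permutation p was 0.333, the smallest that 2 against 2 libraries can give, so the design could not pass a threshold. Without thinning the shares were those given above for GCs, the conditions overlapped, and the exact permutation p was 1.0. Cox4i2 over all GCs was at 78.9, 26.0, 11.3 and 23.4 CPM, and in cycling GCs, which the rule leaves out, at 105, 42.7, 14.2 and 31.6 CPM. Sema3g over all GCs was also lower without overlap, at 49.2, 44.9, 34.4 and 40.7 CPM. Slc16a3 (39.9, 13.4, 13.2 and 14.6 CPM) and Fam81a (55.3, 45.4, 40.0 and 61.8 CPM) overlapped, as did Ndufa4l2 (28.3, 6.25, 6.63 and 2.12 CPM). Ank1 was higher without overlap, at 29.8, 27.0, 49.0 and 36.4 CPM. The difference between the means of the shares was 0.757 percentage points without Fosl2F/F 1 and 2.87 without Fosl2F/F 2. Fewer cells of the kind and less Cox4i2 per cell cannot be told apart by this rule.

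**Figure D4:**
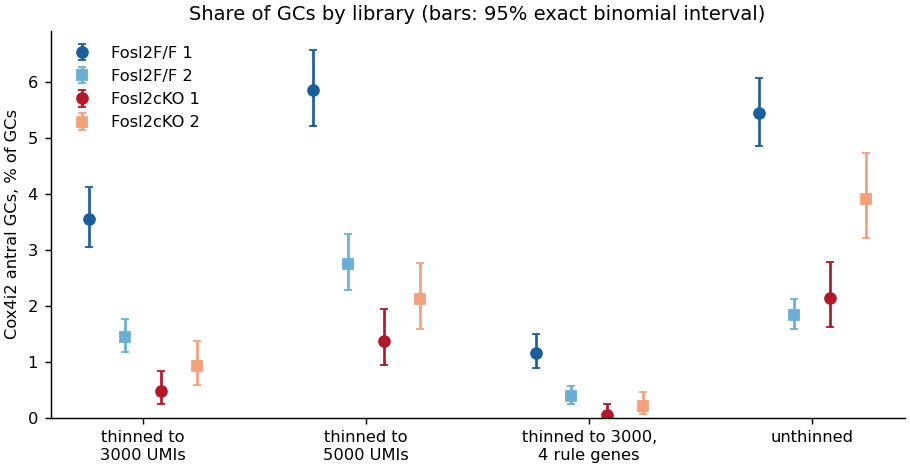
Cox4i2 GCs as a percentage of GCs in each library, with cells thinned to 3000 or 5000 UMIs, with 4 rule genes required, and unthinned. In the thinned settings all limits of the rule were taken on the thinned counts, so cells with Lhcgr or mitotic genes at full depth could pass. Points are libraries and bars are exact binomial 95% intervals; the Fosl2cKO libraries lie lowest in the thinned settings (0.469% and 0.913% at 3000 UMIs) but not in the unthinned one (2.14% and 3.92%).

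Within Cox4i2 GCs, the 2 conditions were compared on UMIs summed per library with edgeR's quasi-likelihood test, a gene being called where its Benjamini-Hochberg adjusted p was under 0.1 and the size of its log2 fold change was over 0.25. Of 10182 genes tested 1 was called, 0.00982%, and 949 had an unadjusted p under 0.05. That gene was Plb1, which encodes a phospholipase and lies beside Fosl2. It had no UMI in either Fosl2F/F library, and 413 and 343 UMIs in those labelled Fosl2cKO (394 and 161 CPM), at least 479-fold higher against a floor of 3 counts over the group, with an edgeR adjusted p of 0.0272. The other Lhcgr-negative GCs held it at 0.170, 0.0493, 538 and 226 CPM, and all barcodes together held 25, 27, 44324 and 40793 UMIs, so the same difference was seen outside Cox4i2 GCs.

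The genes next in order among those without overlap between conditions did not pass. Htra1, a secreted serine protease, was at 215 and 265 CPM against 708 and 709 CPM in the libraries labelled Fosl2cKO, a log2 fold change of 1.51 (SE 0.18, edgeR adjusted p 0.124). Rab5if was at 37.6 and 46.7 against 139 and 195 CPM (1.97, adjusted p 0.129), and Eif3f and Marc2 had log2 fold changes of 1.76 and 1.68. On the lower side, the lysosomal protease Ctsc was at 60.7 and 46.7 against 16.2 and 18.3 CPM (-1.70, edgeR adjusted p 0.215). Loxl1 (-1.62), Tmem45a (-1.52) and Mif (-0.88) followed. Cox4i2 had a log2 fold change of -1.70 (SE 0.28), which is a description, since its detection helped to choose the cells. All of these were taken from genes without overlap between conditions, so that trait is no result. Of all genes tested 20.8% were below and 20.5% above without overlap. The other Lhcgr-negative GCs had log2 fold changes of 1.41 for Htra1, 1.82 for Rab5if, 1.58 for Eif3f, 0.97 for Marc2 and -1.40 for Ctsc, so differences of the same sign were seen there too. Loxl1 (-1.04), Mif (-0.55) and Tmem45a (-0.45) had the same sign there, each smaller in size than in Cox4i2 GCs. The number of calls depended on the fit: DESeq2 called 40 genes, edgeR called 345 without Fosl2F/F 2, 57 without Fosl2cKO 1 and 22 without Fosl2F/F 1. The log2 fold change of Cox4i2 ran from -2.06 to -1.25 over 12 alternatives.

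No glycolytic gene passed the test between conditions. The cells were chosen through the rule genes, of which 4 of 6 were themselves lower without overlap in the libraries labelled Fosl2cKO. Of the 304, 179, 54 and 104 cells, 130, 30, 6 and 20 held 5 or 6 rule genes, and glycolytic levels were higher in such cells. The part of this choice in the fold changes was not tested. Of 23 genes of the glycolysis list tested, 12 were below both Fosl2F/F libraries in both libraries labelled Fosl2cKO and 3 were above both, against 20.8% and 20.5% of all genes tested. The median log2 fold change was -0.39, and 0.01 over all genes. Ldha had -0.89 (SE 0.18, edgeR adjusted p 0.247), the lowest adjusted p of the list. Slc16a3, a rule gene that is not in the list, had -1.09 (SE 0.26), which is a description. Pgk1 (-0.82), Pfkp (-0.77), Pkm (-0.75), Aldoa (-0.74), Gapdh (-0.73), Tpi1 (-0.71) and Eno1 (-0.60) were below without overlap, while Slc2a1 overlapped at 56.1, 24.1, 33.4 and 39.4 CPM. With at least 4 rule genes required, these log2 fold changes were smaller in size, such as -0.62 for Ldha, -0.50 for Aldoa and -0.37 for Eno1. In cells with 5 or 6 rule genes Ldha, Pgk1, Pkm, Aldoa, Tpi1 and Eno1 overlapped between conditions, while Pfkp and Gapdh did not. Eno1 was at 790, 863, 862 and 632 CPM in those cells. In the other Lhcgr-negative GCs 6 of 25 genes of the list were below and 4 above without overlap, against 17.6% and 17.1% of all genes tested there, with a median of -0.09. In cycling GCs Ldha, Gapdh, Aldoa, Pkm, Tpi1, Eno1, Pgk1 and Pfkp were also lower in the libraries labelled Fosl2cKO without overlap. There Ldha was at 870, 661, 558 and 547 CPM and Gapdh at 1757, 1325, 1086 and 1084 CPM, while Slc2a1 overlapped. Neither the whole list nor the share over all genes was counted in cycling GCs. With any 1 library left out, the median of the list in Cox4i2 GCs lay between -0.64 and -0.28, and Ldha itself passed the limits in 4 of 12 alternatives (adjusted p 0.00198 to 0.817).

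Complex I genes lay to the same side, while 20.8% of all genes tested were below and 20.5% above without overlap. The part of the choice of cells through the rule genes was not tested here either. Of its 35 genes, 34 were below without overlap in the libraries labelled Fosl2cKO, none was above, and the log2 fold changes ran from -0.79 to -0.17 with a median of -0.46 and a smallest edgeR adjusted p of 0.327. Ndufs4, at 628, 541, 328 and 376 CPM, had the lowest at -0.79 (SE 0.19). For complex IV outside the rule, 11 of 13 genes were below and 1 above (median -0.35), and for the genes of the mitochondrial genome 4 of 13 were below and 2 above (median -0.07). The mitochondrial shares, 30.8% and 15.4%, were not far from those over all genes. The other Lhcgr-negative GCs had 23 of 35 complex I genes below and none above, with a median of -0.21. For complex IV they had 10 of 14 genes below and 0 above, with a median of -0.27. Of all genes tested there 17.6% were below and 17.1% above without overlap. Of 26 hypoxia genes 8 were below (30.8%, against 20.8% of all genes) and 1 above. Of 18 GC identity genes 4 were below and 5 above (22.2% and 27.8%), near the shares over all genes. None of these genes was called. The cells of Fosl2F/F 2 were shallower than those of the other 3 libraries, and with only cells of 5000 to 20000 UMIs, a limit chosen after the data were seen, the medians of complex I and glycolysis were -0.34 and -0.38.

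**Figure D5:**
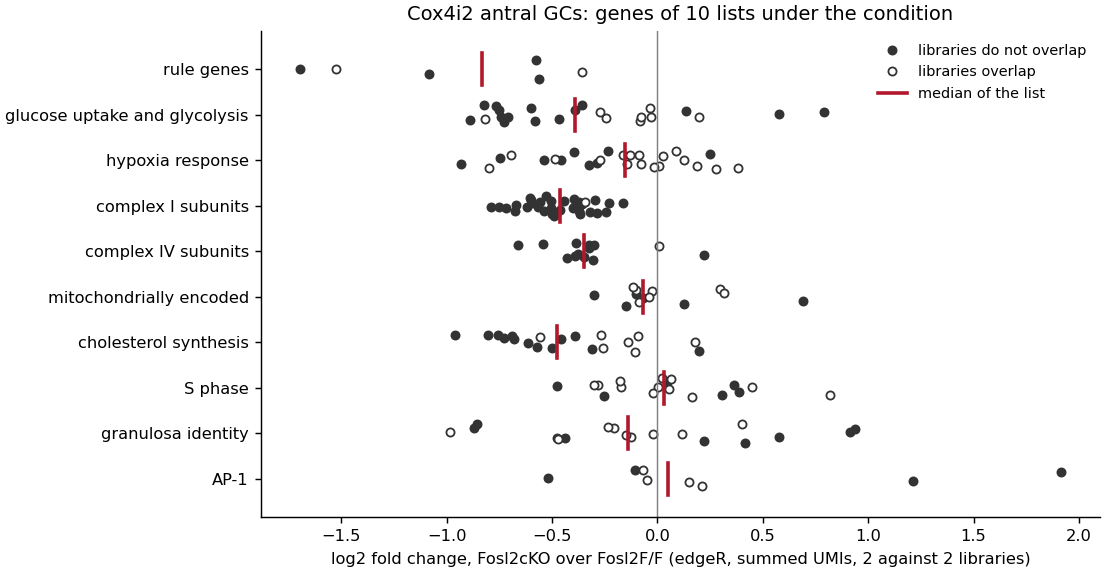
Log2 fold change of each gene of 10 lists in Cox4i2 GCs, Fosl2cKO over Fosl2F/F (edgeR, 2 against 2 libraries). Filled points are genes whose conditions do not overlap and red lines are medians, which lie at -0.46 for complex I, -0.39 for glycolysis and 0.03 for S phase.

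Fosl2 had a log2 fold change of -0.07 (SE 0.21, edgeR adjusted p 0.936) with overlapping libraries. Of 8 AP-1 genes 2 were below and 2 above without overlap (25% each way), near the 20.8% and 20.5% over all genes. Jund was at 180, 167, 237 and 1104 CPM in Cox4i2 GCs, and Fosl2cKO 2 stood apart in every GC class, at 1078 to 1427 CPM, so its log2 fold change of 1.92 (edgeR adjusted p 0.394) rested on 1 library.

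Whether the condition acted differently in Cox4i2 GCs than in the other Lhcgr-negative GCs was tested as an interaction of class and condition, with library as a block. Of 14748 genes 3 were called, 0.0203%, and 925 had an unadjusted p under 0.05. Igfbp5, which binds insulin-like growth factors, was at 22.5, 47.5, 85.8 and 139 CPM in Cox4i2 GCs and at 179, 213, 162 and 243 CPM in the other class. It was higher in the libraries labelled Fosl2cKO in the first class and overlapped in the second. Meg3, a long noncoding RNA, was at 329, 257, 155 and 187 CPM in Cox4i2 GCs and at 125, 108, 167 and 154 CPM in the other class, so its directions were opposite. Galnt18, which starts O-linked glycosylation, rested on 23, 2, 6 and 43 UMIs in Cox4i2 GCs. Without Fosl2F/F 1 only Meg3 of the 3 passed, at an edgeR adjusted p of 0.0887, while the difference of log2 fold changes was 1.26 for Igfbp5 and 3.54 for Galnt18. Galnt18 also lost its call without Fosl2cKO 2, with a difference of 2.34 (edgeR adjusted p 0.266). Against Lhcgr-positive GCs in place of the other class none of the 3 passed (edgeR adjusted p 0.522 to 1.0), but the difference of Igfbp5 was as large, at 1.77, whereas those of Meg3 (-0.35) and Galnt18 (0.0070) were smaller. The genes of the rule and of glycolysis were not among the 3, the difference of log2 fold changes being 0.42 for Cox4i2, which the rule used. For Pfkp (-0.63), Aldoa (-0.62), Pgk1 (-0.53), Gapdh (-0.52), Pkm (-0.52) and Ldha (-0.36) the differences had 1 sign, with edgeR adjusted p of 0.480 for Aldoa to 0.80 for Ldha. Tpi1 (-0.42), Eno1 (-0.37) and Slc2a1 (-0.13) had the same sign. All of these had been picked for the comparison within Cox4i2 GCs, and signs over the whole list were not counted. Markers of several other cell types moved with the condition in the other Lhcgr-negative GCs, where 17.6% of all genes tested were below without overlap. In the libraries labelled Fosl2cKO 8 of 8 macrophage and leukocyte genes (median log2 fold change -1.29) and 7 of 7 endothelial genes (-1.53) were below without overlap. So were 7 of 8 stromal genes (-1.62) and 8 of 11 pericyte and smooth muscle genes (-1.38), none of them called. Theca genes (2 of 6 below and 1 above, median 0.31) and luteal genes (2 of 5 below and 1 above, 0.06) did not move to that side. In Cox4i2 GCs 0 of 4 macrophage and leukocyte genes, 1 of 2 endothelial and 2 of 5 stromal genes tested were below without overlap. So were 2 of 2 pericyte and smooth muscle genes, against 20.8% of all genes tested there. The part of these markers in the interaction was not tested.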

How the data were processed

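Single-cell RNA sequencing of whole ovaries gave 4 droplet libraries, 2 per condition, all with a group in the labels. The authors aligned reads with Cell Ranger (the version differs between methods and file header) to GRCm38 and deposited UMI counts per gene and barcode, whole numbers without normalization. CellBender is in their methods, and whether its correction is in the deposited counts is not stated. The labels' processing notes also name Seurat 4.1.0. The doublet removal, the hemoglobin limit of 0.1% and the integration of the methods were not applied here; no column of per-sample values was left out.

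UMIs were summed per class and library. Classes other than Cox4i2 GCs were other Lhcgr-negative GCs (8753 cells), Lhcgr-positive GCs (2994 cells, at least 2 Lhcgr UMIs) and cycling GCs (6132 cells, at least 2 mitotic genes). Conditions were compared with edgeR 4.0.16 (R 4.3.3; filterByExpr, TMM, quasi-likelihood test, Benjamini-Hochberg) and DESeq2 1.42.0 as an alternative, neighbours and Scrublet scores came from scanpy 1.11.5, and the gene test was tested on simulated data. Shares were compared by exact permutation.

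Named genes are the genes of the rule, for each list up to 8 with the largest ratios at 20 CPM or more (list counts took 20 CPM in Cox4i2 GCs or the other Lhcgr-negative GCs), the 15 highest and 15 lowest of at least 50 CPM over the other Lhcgr-negative GCs, called genes or the 5 of lowest p in each direction, the AP-1 genes and those beside Fosl2. Others (Ldhb, Hk1, Hk2, Pdk4, Slc2a1, Pfkp, Fshr, Amh, Vegfa, Hif1a, Epas1, Arnt, Bhlhe40, Ndufs4, Igfbp5, Meg3, Galnt18) and the cholesterol list were chosen after their values were seen. The genes of lowest p were taken only from those of at least 20 CPM without overlap between conditions. The rule, the cells and the lists were chosen with earlier results of these data known. Alternatives changed the test, scaling, gene filter, call limits, doublets, depth, rule and comparator, left out each library and took the replicate number as a block.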

Additional observations from a re-analysis of the deposited data

Results flagged for a closer look

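In 3 genes the condition had a different effect in Cox4i2 GCs than in the other Lhcgr-negative GCs by edgeR's test of the interaction, each at an adjusted p of 0.0320. The difference of log2 fold changes was 1.77 (SE 0.23) for Igfbp5, which was not called within Cox4i2 GCs alone (log2 fold change 1.75, edgeR adjusted p 0.290). Without Fosl2F/F 1 Igfbp5 (difference 1.26) and Galnt18 (3.54) lost the call, and Galnt18 also did without Fosl2cKO 2 (2.34, edgeR adjusted p 0.266). For Galnt18 it was 2.98, on 23, 2, 6 and 43 UMIs in Cox4i2 GCs, and its levels there were 4.83, 1.56, 5.72 and 20.2 CPM against 34.1, 17.7, 8.46 and 16.6 CPM in the other class. For Meg3 it was -1.24, with a log2 fold change of -0.84 in Cox4i2 GCs and 0.43 in the other class, neither of them called. No group held the 4 samples needed for a test of outlying libraries.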

How the results depend on the processing

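The count of genes called in Cox4i2 GCs between conditions was 1 (1 higher), and 40 with DESeq2 (31 higher, 9 lower), 310 without a gene filter (196 and 114), 6 with doublets removed, 23 with at least 4 rule genes, and 5 with cells of 5000 to 20000 UMIs, an alternative added after the data were seen. It was 1 to 345 with 1 library left out, the lone sample of a condition being assumed to vary like the others. With the replicate number as a block it was 87 (64 and 23). Same-numbered libraries deviated together by a correlation of only -0.0747 over 10182 genes and the labels do not pair them, so the block has no basis in the design. Plb1 was called in each alternative. The count of genes whose condition effect differed between classes was 3, and 10 with RLE scaling, 145 without a filter, 0 with Lhcgr-positive GCs as comparator (604 at an unadjusted edgeR p under 0.05) and 2 to 471 with 1 library left out.

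The difference in share between conditions was 1.81 percentage points (Fosl2F/F higher), 0.608 unthinned, where Fosl2F/F 2 was the lowest library, and 0.757 to 2.87 with 1 library left out, the ends being without Fosl2F/F 1 and without Fosl2F/F 2. The number of genes higher in all libraries stayed within 2036 to 2604, and 1256 of 1403 gene ratios and 221 of 243 list medians moved by less than the spread between libraries. Signs turned for the genes beside Fosl2 (0.0628) and Plb1 (0.0223) in cells of 5000 to 20000 UMIs, and for the Cox4i2 interaction against Lhcgr-positive GCs (-0.42). With 1 library left out, the steroidogenesis ratio ran from -0.16 (without Fosl2F/F 1) to 0.33, and fold changes from -0.77 to 0.11 for Ank1 (without Fosl2F/F 2), -0.71 to 0.58 for Slc2a1 (without Fosl2F/F 1), -1.77 to 0.59 for Fshr (0.24 without Fosl2F/F 1, 0.59 without Fosl2cKO 1), -0.29 to 0.14 for Fosl2 (without Fosl2cKO 2) and -0.25 to 0.10 for the GC identity median (without Fosl2F/F 1). The cause was not tested. Fosl2cKO 1 held 54 of the cells and 1048460 UMIs in the class, and the cells of Fosl2F/F 2 were the shallowest.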

Other observations

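Genes of cholesterol synthesis were higher in Cox4i2 GCs than in the other Lhcgr-negative GCs. The list of 20 genes was drawn up after Mvd, Acat2, Fdps and Idi1 had been seen among the leading genes, so its counts support nothing. Of 18 genes at 20 CPM in either class, 16 were higher in all 4 libraries than in the other Lhcgr-negative GCs and 2 were mixed, with a median log2 ratio of 1.45. Sqle, squalene epoxidase, was at 122, 112, 102 and 78.3 CPM against a mean of 30.5 CPM, a log2 ratio of 1.75 ± 0.43 (SD, n = 4 libraries). Fdps, which makes farnesyl diphosphate, was at 634, 557, 410 and 366 CPM. Against Lhcgr-positive GCs the median of the list was 0.22. In the libraries labelled Fosl2cKO 12 of 20 genes were below both Fosl2F/F libraries and 1 was above, against 20.8% and 20.5% of all genes tested, with a median log2 fold change of -0.48 (-0.28 without Fosl2cKO 2, -0.18 with at least 4 rule genes) and none called (smallest edgeR adjusted p 0.325), and in the other Lhcgr-negative GCs 2 of 20 were below, against 17.6% of all genes tested, with a median of -0.04.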
